A study of Drosophila melanogaster with 2 samples.

Results

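The regions described here were the 480 peaks that stood at ranks 21 to 500 of the Kah peak list when it was ordered by the peak caller's signal. They were chosen by signal alone, out of 4105 peaks that had passed the irreproducible discovery rate (IDR) threshold, a filter based on the agreement of the replicates. The other IDR peaks, with which they are compared, were the 3605 peaks below rank 500, and the 20 strongest peaks were left out of both sets. The data were from ChIP-seq on whole embryos of Drosophila melanogaster aged 0 to 16 h and of both sexes, in 2 biological replicates. The embryos came from 1 transgenic line stably expressing Kahuli (Kah, also CG17181) with a green fluorescent protein (GFP) tag at its C terminus, so all samples shared that genotype and there was no second condition. The labels give Kah as the antibody target, while their free text speaks of an input control for both libraries; the files were read as the ChIP-seq peak lists that their listing describes. Signal is in the caller's own units, whose scaling is not stated, and read depth is unknown. A whole embryo mixes all cell types, so the values are sums over them.

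Kah is a zinc finger transcription factor of the Snail family. Proteins of this family bind E-boxes, short palindrome-like DNA words of the type CAnnTG, and Snail itself is best known for repressing genes as the mesoderm forms in the early fly embryo. Genes near a peak are named below as the nearest protein-coding genes, with no statement on whether Kah regulates them.

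Sequences around individual summits are shown first, because the words in them differed between the strongest peaks and the rest. Each is the 61 bp centred on a summit, on the plus strand of dm6 (Release 6, RefSeq). The first set shows members with CAGGTG, the Snail-type E-box. Capitals mark CAGGTG, with its complement CACCTG, and likewise a second word, ACAGGT (complement ACCTGT), and a further word, ACAAGT (complement ACTTGT). Overlapping words run together. The regions are, in order, chr2L:19490119-19490179, chr3L:14969197-14969257, chr2L:4810431-4810491, chr2L:8156937-8156997, chr3L:8546563-8546623, chr3L:2906566-2906626, chrX:15760816-15760876, chr2L:484319-484379, chr3R:26036891-26036951 and chr2L:18881522-18881582. Members in untranslated exons are not shown.
CG10194/CG18094: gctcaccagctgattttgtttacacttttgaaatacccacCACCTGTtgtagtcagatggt
Tom: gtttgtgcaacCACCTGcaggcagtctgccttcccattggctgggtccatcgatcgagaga
CG15629: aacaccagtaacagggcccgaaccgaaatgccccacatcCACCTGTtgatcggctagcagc
PAPLA1: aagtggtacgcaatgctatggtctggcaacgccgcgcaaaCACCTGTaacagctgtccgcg
rhea: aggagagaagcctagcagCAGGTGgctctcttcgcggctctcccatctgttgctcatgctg
Shab: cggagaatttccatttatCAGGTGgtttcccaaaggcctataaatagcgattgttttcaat
Graf/mRpL3: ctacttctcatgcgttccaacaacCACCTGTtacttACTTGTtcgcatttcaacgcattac
cbt: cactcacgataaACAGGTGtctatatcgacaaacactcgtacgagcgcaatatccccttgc
E(spl)m7-HLH: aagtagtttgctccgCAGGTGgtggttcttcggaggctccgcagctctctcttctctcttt
tup: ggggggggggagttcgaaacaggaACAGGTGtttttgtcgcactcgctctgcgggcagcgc

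At CG10194/CG18094, CG15629, PAPLA1, Graf/mRpL3, cbt and tup the word was preceded by A, as ACAGGTG, for which the complement is CACCTGT. The next set shows 4 members without CAGGTG but with 1 of the other 2 words, at chr2L:16798881-16798941, chr3L:14706559-14706619, chr3L:589668-589728 and chr3L:16567563-16567623.
Ugt37D1: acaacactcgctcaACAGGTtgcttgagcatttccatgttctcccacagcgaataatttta
ome: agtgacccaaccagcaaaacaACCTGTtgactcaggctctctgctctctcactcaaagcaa
Kah: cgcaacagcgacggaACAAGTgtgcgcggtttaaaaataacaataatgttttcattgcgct
UQCR-6.4L: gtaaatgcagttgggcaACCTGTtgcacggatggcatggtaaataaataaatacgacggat

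The last set shows 5 of the strongest promoter members that are rich in A and T and hold none of the 3 words, at chr3R:15229496-15229556, chr3R:12449148-12449208, chrX:15867950-15868010, chr3R:25515847-25515907 and chr2L:8376840-8376900.
Art3/mRpS10: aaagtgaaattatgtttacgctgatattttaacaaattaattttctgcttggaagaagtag
CG18549: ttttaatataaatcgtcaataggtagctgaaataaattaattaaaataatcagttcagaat
Gapdh2: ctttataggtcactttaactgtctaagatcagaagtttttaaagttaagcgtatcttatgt
msi: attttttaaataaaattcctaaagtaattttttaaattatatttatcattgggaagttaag
CG13390/CG17294: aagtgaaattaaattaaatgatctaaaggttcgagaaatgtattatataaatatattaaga

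The Snail-type E-box was more frequent around the summits of the members than around those of the other IDR peaks. CAGGTG lay within 50 bp of the summit of 78 members (16.2%, exact 95% interval 13.1 to 19.9%), against 320 of 3605 other IDR peaks (8.88%, 7.97 to 9.85%), while over all 4105 IDR peaks the share was 9.87%. The difference was 7.37 percentage points, with a Newcombe 95% interval of 4.19 to 11.0. Peaks are not replicates, so these intervals cover only the counting error of the listed regions, and no test was made on them. Along the ranks, the share was 22.5% at ranks 21 to 100, 18% at ranks 101 to 200, 14% at ranks 201 to 300, 15% at ranks 301 to 400 and 13% at ranks 401 to 500. Below the members it was 10% at ranks 501 to 1000 and 7.60% at ranks 3001 to 4105. Neighbouring bins of ranks among the members overlapped within their intervals.

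The base before CAGGTG differed too. Of the members with CAGGTG, 54 of 78 (69.2%, 57.8 to 79.2%) had A before it, against 152 of 320 other IDR peaks with the word (47.5%, 41.9 to 53.1%), a difference of 21.7 points (9.5 to 32.3). G before it was found at 13 members (16.7%) and 97 other peaks (30.3%), a difference of -13.6 points (-22.1 to -2.75). For each base after the word the interval of the difference included 0, as for G, at 52.6% of the members and 47.8% of the others (-7.48 to 16.7 points).

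**Figure D1:**
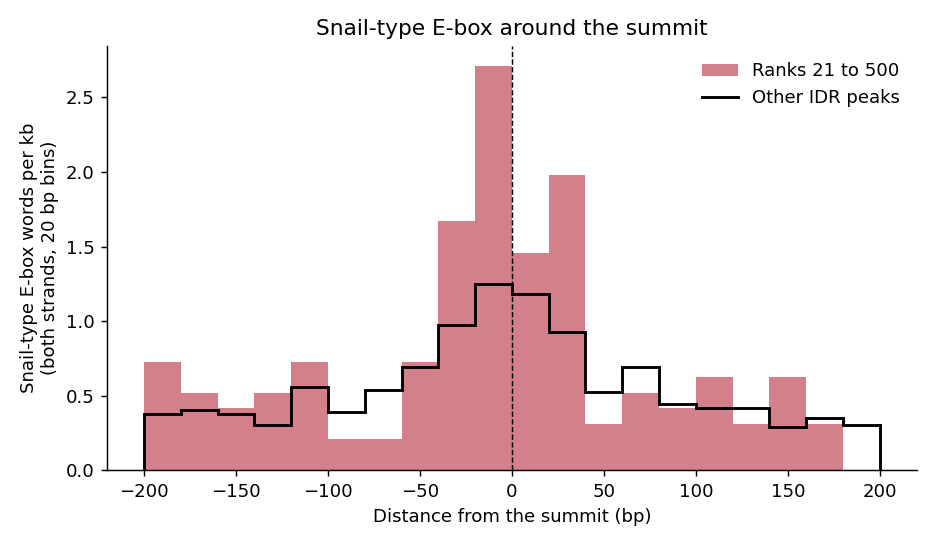
Density of CAGGTG on either strand in bins of 20 bp (vertical axis, words per kb) against distance from the summit in bp (horizontal axis), for members (filled) and other IDR peaks (line). The bin just before the summit holds 2.71 words per kb in members and 1.25 in other IDR peaks, and the next bin holds 1.46 and 1.18.

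In the plot of CAGGTG density, both sets were densest close to the summit. In the 20 bp before the summit the members held 26 words, or 2.71 per kb, and the other IDR peaks 90 words, or 1.25 per kb. In the 20 to 40 bp after it the densities were 1.98 per kb in members and 0.929 per kb in the others. Further out the order of the sets varied between bins. Between 60 and 80 bp before the summit the densities were 0.208 per kb in members and 0.541 per kb in the others, and 180 to 200 bp before it they were 0.729 per kb in members and 0.374 per kb in the others. The outer bins hold few words of the members, from 0 to 7 each. In the window, 2 or more CAGGTG words were found at 2 members (0.417%) and 24 other IDR peaks (0.666%). The interval of that difference included 0 (-0.691 to 0.862 points). In both sets the peaks with the word mostly had 1.

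Some of the other words were also more frequent in the members, but the E-boxes CACGTG and CATATG, given further below, were not. ACAGGTG was found at 54 members (11.2%) and 152 other IDR peaks (4.22%), a difference of 7.03 points (4.41 to 10.2). CAAGTG was found at 14.6% of members and 9.82% of the others, with a difference of 4.76 points (1.71 to 8.33). CAGCTG, an E-box of many basic helix-loop-helix proteins, was found at 8.54% of members and 5.33% of the others (difference 3.22 points, 0.897 to 6.14). CAGGTA, part of the site of the early embryonic activator Zelda, was found at 4.38% of members and 2.69% of the others (difference 1.68 points, 0.0796 to 3.96). TAATTA, a homeodomain core, was found at 10.6% of members and 7.99% of the others, with an interval for the difference of 0.0145 to 5.83 points.

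Among the other words, ACACAC was less frequent in the members, at 6.25% against 9.79% of the other IDR peaks (difference -3.54 points, -5.64 to -0.845). For the remaining words the interval of the difference included 0. CACGTG was at 1.46% of members and 1.72% of the others. CATATG was at 3.54% of members and 3.99% of the others. GAGAGA, bound by GAGA factor, was at 7.50% of members and 7.85% of the others. TATTTA was at 25% of members and 23.9% of the others, and TATAAA, the TATA box, at 19.6% of members and 17.4% of the others. ATCGAT was at 5.00% of members and 4.02% of the others, and the longer TATCGATA, bound by the promoter protein DREF, at 2.08% of members and 1.28% of the others. GGTCACA was at 1.46% of members and 1.55% of the others, and AGATAA, the site of GATA factors such as pannier, at 6.67% of members and 6.88% of the others. The shuffled control word GTGGAC was at 1.67% of members and 1.91% of the others, and the control word GACGTG at 1.46% of members and 1.75% of the others.

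The word ACAGGT and its near neighbour ACAAGT were added after the sequences of these peaks had been seen, so their counts are a description. ACAGGT overlaps CAGGTG by 5 letters. It was found at 93 members (19.4%) and 287 other IDR peaks (7.96%), and ACAAGT at 86 members (17.9%) and 352 other IDR peaks (9.76%). At least 1 of the 3 words was found at 194 members (40.4%, 36 to 45%), against 767 other IDR peaks (21.3%, 19.9 to 22.6%). CAGGTG and ACAGGT overlapped, as ACAGGTG, at 54 members and 152 other IDR peaks. CAGGTG was found together with ACAAGT at 7 members and 25 other IDR peaks. The remaining 286 members held none of the 3 within 50 bp of the summit.

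**Figure D2:**
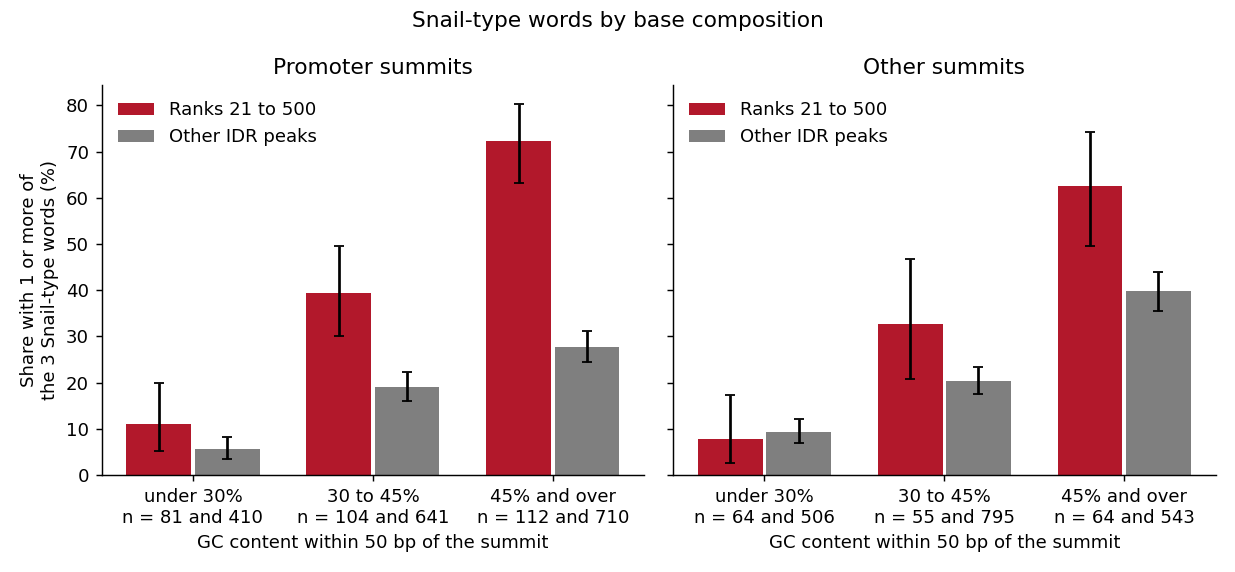
Share of peaks with at least 1 of the 3 words in capitals above within 50 bp of the summit (vertical axis, %) by GC content of the same window, for summits within 500 bp of a protein-coding TSS (left) and further away (right). The plot labels all 3 words as Snail-type, but whether Kah or Snail binds ACAGGT or ACAAGT was not tested. These last words and the GC bands were chosen after the peaks had been seen. Bars are members and other IDR peaks with exact 95% intervals, and n gives members and then other IDR peaks; at promoters with GC of 45% and over the shares are 72.3% and 27.7%.

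The share of promoter members with these words went up with GC content, and so did that of the other promoter peaks, as the plot of word shares by GC content shows. GC content was taken over the same window that was searched for the words. CAGGTG is itself rich in G and C, so its share and GC content are not independent. The words ACAGGT and ACAAGT and the bands of GC content were chosen after these peaks had been seen, so the shares with 1 of the 3 words are a description. Of the 112 promoter members with GC of 45% and over, 81 (72.3%, 63.1 to 80.4%) held 1 of the 3 words, against 197 of 710 other promoter peaks in that band (27.7%, 24.5 to 31.2%). Between 30 and 45% GC the counts were 41 of 104 promoter members (39.4%) and 122 of 641 other promoter peaks (19.0%). Under 30% GC they were 9 of 81 promoter members (11.1%) and 23 of 410 others (5.61%), and the interval of that difference included 0 (-0.302 to 14.4 points). CAGGTG alone was at 42 of the 112 GC-rich promoter members (37.5%), against 101 of 710 other promoter peaks in that band (14.2%). It was at 1 of the 81 AT-rich promoter members and at 2 of the 410 others. Away from promoters at GC of 45% and over, 62.5% of members and 39.8% of other peaks held 1 of the 3 words, and under 30% the shares were 7.81% of members and 9.29% of other peaks.

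The signals of the AT-rich and GC-rich promoter members overlapped. The median signal was 729.9 at AT-rich promoter members and 795 at GC-rich ones, with quartiles of 607 to 950.3 and 599 to 1108. AT-rich promoters made up 27.3% of the promoter members and 23.3% of the other promoter peaks, and the interval of that difference included 0 (-1.18 to 9.65 points). The summits of AT-rich promoter members lay further upstream, at a median of -158 bp from the transcription start site (TSS), against -28.5 bp for the GC-rich promoter members. In the other IDR peaks those medians were -152 and -2 bp, so this difference by base composition was found in both sets.

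The signal of the members was next compared between the replicates, which the ranking itself did not use separately. Since the pooled signal behind the ranks was close to the sum of the replicate signals (median ratio 1.00 in members and 0.999 in the other IDR peaks), the replicate values are a description too. The members had a median signal of 373 in replicate 1 and 375 in replicate 2, and the other IDR peaks 109 in replicate 1 and 114 in replicate 2. A candidate within 100 bp was present in both replicates for 479 of 480 members (99.8%) and 3403 of 3605 other IDR peaks (94.4%), while over all IDR peaks the share was 95.1%. The exception was the member in an intron of brwl (brickwall), at rank 425, with a signal of 559 in the pooled list and 269 in replicate 2. It had no candidate within 100 bp in replicate 1, but within 250 bp 100% of members had a candidate in both replicates. Of the members, 423 were among the 500 strongest candidates of replicate 1, 430 among those of replicate 2, and 373 in both.

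**Figure D3:**
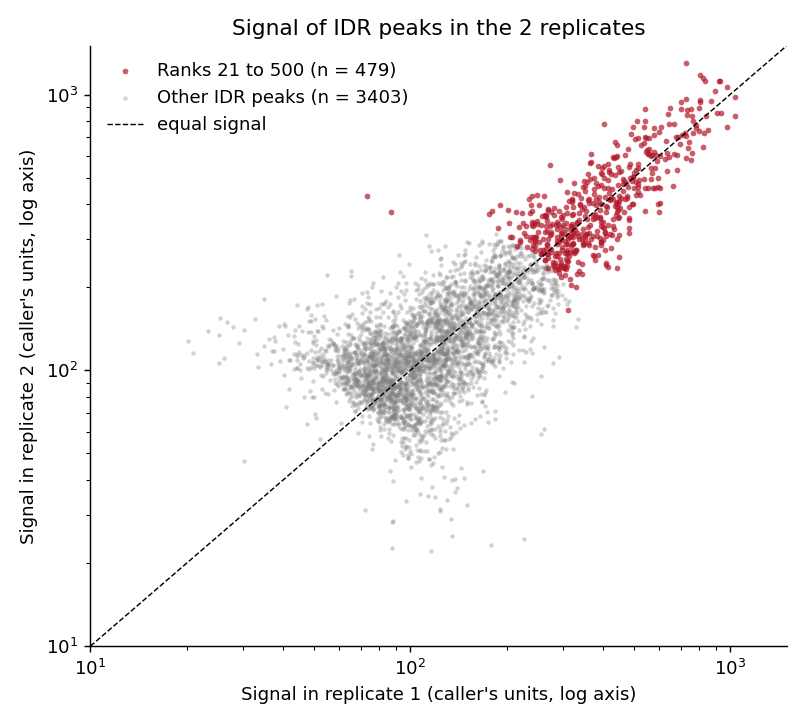
Signal in replicate 2 (vertical) against replicate 1 (horizontal), in the caller's units on log axes, for the 479 members and 3403 other IDR peaks with a candidate in both replicates; each point is a peak and the dashed line marks equal signal. The members lie along the line, and the 2 points far above it among them are CG8132/RpL34b and MFS14. Replicate signals are those of the nearest candidate summit within 100 bp, which may not be the strongest one there.

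The ratio of the replicates spread less in the members. The SD of the log2 ratio, replicate 2 over replicate 1, was 0.38 in members and 0.59 in the other IDR peaks. By rank, it was 0.28 at ranks 21 to 100 and 0.45 at ranks 401 to 500. Below the members it was 0.46 at ranks 501 to 1000 and 0.69 at ranks 3001 to 4105. The peaks just below the members thus had about the spread of the last members. The ratio was within 1.5-fold of the median of all IDR peaks for 432 of 479 members and 2455 of 3403 others. It was over 2-fold from it for 4 members and 281 others. The largest tilt was at CG8132/RpL34b, rank 204, with 73.4 in replicate 1 and 429 in replicate 2. Its pooled signal lay between 834 (eIF6, rank 207) and 843 (mRpL23, rank 196), above the sum of its replicate values. Over the members, the ratio of pooled signal to the sum of replicate signals reached 1.67, with a median of 1.00. Each match took the nearest candidate summit within 100 bp, whatever its signal. Whether 73.4 belongs to a weaker neighbouring summit was not tested. MFS14, a transporter of the major facilitator superfamily, had 86.8 in replicate 1 and 376 in replicate 2. CG5535 (181 and 379.7), kay (177 and 370.1), which encodes the Fos transcription factor, and ckn (190.4 and 398) were the next most tilted to replicate 2. The members most tilted to replicate 1 were rumi (312 in replicate 1 and 166 in replicate 2), l(2)k01209 (442 and 235), p38a (415 and 237), Hrd3 (451 and 258) and schlank (411 and 242).

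The tilt moved with base composition in both sets. The median log2 ratio, again replicate 2 over replicate 1, was -0.23 in members under 30% GC, -0.04 between 30 and 45% and 0.33 at 45% and over. In the other IDR peaks it was -0.24, 0.04 and 0.35 in the same bands. It was 0.23 in members with CAGGTG and -0.01 in members without it, and 0.26 and 0.05 in the other IDR peaks with and without the word. Within bands of GC content, the difference in CAGGTG share at promoters, members minus other IDR peaks, was 23.3 points (14.4 to 32.8) at 45% and over, 5.77 points (0.521 to 13.5) at 30 to 45% and 0.747 points (-0.882 to 6.19) under 30%. Away from promoters it was 6.49 points (-3.44 to 18.8), 1.04 points (-4.52 to 11.7) and 0.179 points (-1.75 to 6.99) in the same bands. When the IDR peaks were ranked by replicate 1 alone the difference in CAGGTG share between ranks 21 to 500 and the rest was 5.01 points (2.01 to 8.54), and by replicate 2 alone it was 8.43 points (5.16 to 12.2).

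The members lay nearer to the starts of genes. A promoter reached 500 bp up and down from each TSS of a protein-coding gene. It held 297 members (61.9%, 57.4 to 66.2%), against 1761 other IDR peaks (48.8%, 47.2 to 50.5%), while over all IDR peaks the share was 50.5%. The difference was 13 points (8.31 to 17.6). The median distance to a TSS was 246 bp for members and 534 bp for the others. Summits more than 5000 bp from any TSS made up 49 members (10.2%) and 569 of the others (15.8%), a difference of -5.58 points (-8.27 to -2.33). Within the members the promoter share was 71.2% at ranks 21 to 100, 60, 63 and 51% in the next 3 bins of 100 ranks and 66% at ranks 401 to 500. Below the members it was 57.6% at ranks 501 to 1000 and 46.0% at ranks 3001 to 4105.

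**Figure D4:**
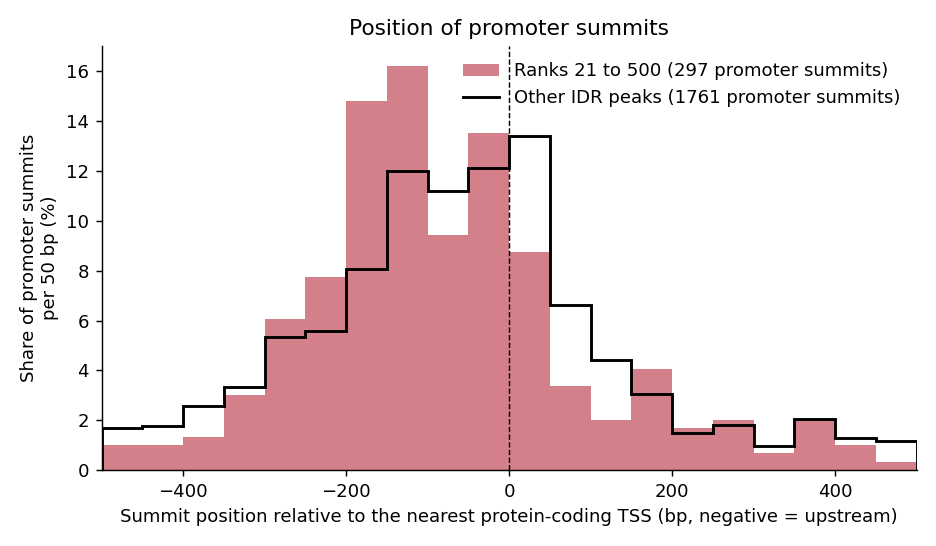
Share of promoter summits in each 50 bp (vertical axis, %) against their position from the nearest protein-coding TSS (horizontal axis, bp, negative upstream), for the 297 promoter members (filled) and 1761 other promoter peaks (line). The members are more frequent between 51 and 250 bp upstream, at 48.1% against 36.9%.

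Within promoters the members lay mostly upstream of the TSS, 220 of them (74.1%) against 77 downstream. Of the other promoter peaks 1121 (63.7%) were upstream, and the difference was 10.4 points (4.70 to 15.6). As the plot of promoter positions shows, 143 promoter members (48.1%) were 51 to 250 bp upstream, against 649 of the other promoter peaks (36.9%), a difference of 11.3 points (5.23 to 17.4). Promoters with TSSs on both strands were about as frequent in both sets, at 27.3% of promoter members and 26.7% of the other promoter peaks (difference 0.583 points, -4.62 to 6.28). At promoters 55 members (18.5%) and 140 other peaks (7.95%) held CAGGTG, a difference of 10.6 points (6.34 to 15.5). Away from promoters the counts were 23 members (12.6%) and 180 other peaks (9.76%), and the interval of the difference included 0 (-1.49 to 8.53 points).

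**Figure D5:**
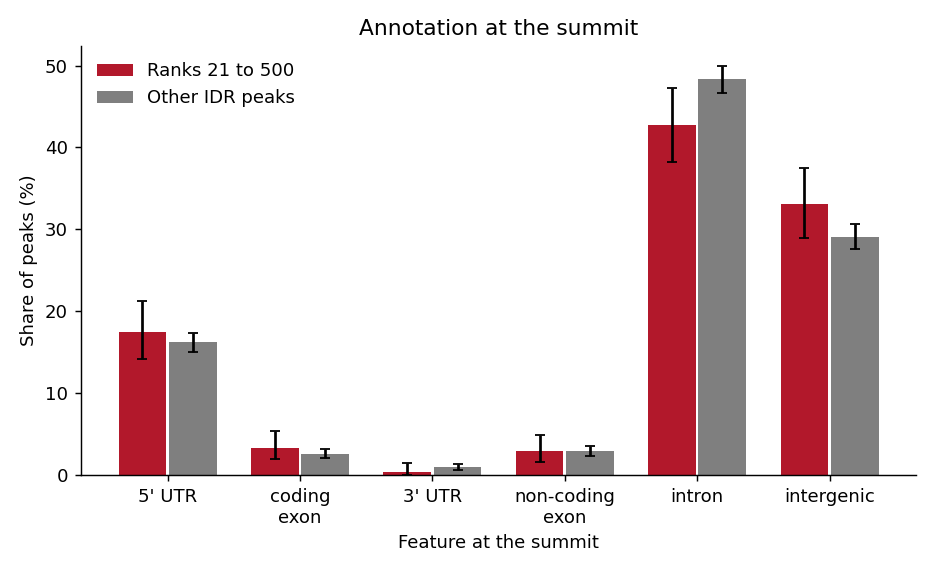
Share of peaks by the feature at the summit (vertical axis, % of each set) for the 480 members and 3605 other IDR peaks, with exact 95% intervals. Introns are at 42.7% of members and 48.3% of the others, and the intervals of the difference include 0 in the other classes.

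The feature at the summit was an intron for 42.7% of members and 48.3% of the other IDR peaks, a difference of -5.56 points (-10.2 to -0.804). Intergenic sequence held 159 members (33.1%) and 1048 of the others (29.1%), and a 5' UTR 84 members (17.5%) and 583 of the others (16.2%). Coding exons held 16 members, exons of non-coding transcripts 14 and 3' UTRs 2, against 95, 105 and 34 of the others. Over all summits, the differences in these 5 classes had intervals that included 0. Among promoter summits alone, introns held 31.0% of members and 26.4% of the others (difference 4.57 points, -0.844 to 10.4) and 5' UTRs 25.6% of members and 31.4% of the others (difference -5.81 points, -10.9 to -0.147). Away from promoters introns held 61.7% of members and 69.1% of the others (difference -7.39 points, -14.9 to -0.329) and 5' UTRs 4.37% of members and 1.63% of the others (difference 2.74 points, 0.497 to 6.79). A second IDR summit stood within 1000 bp of 126 members (26.2%) and 696 of the others (19.3%), a difference of 6.94 points (2.98 to 11.2). The members were spread over 2L (23.3% against 18.8% of the others, difference 4.53 points, 0.731 to 8.70), 2R (20.4% and 19.1%), 3L (20.4% and 21.8%), 3R (20.8% and 24.1%), X (14.6% and 15.9%) and 4 (0.417% and 0.388%). For the last 5 the interval of the difference included 0.

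The strongest members can be read one by one. Rank 21, the first below the 20 strongest, lay between CG10194 and CG18094, 45 bp upstream of CG10194, with a signal of 2064 in the pooled list, 930.5 in replicate 1 and 1123 in replicate 2. Rank 22 was in the 5' UTR of CG8312, whose promoter it shares with bocks (bocksbeutel), a protein of the inner nuclear membrane, and had 922 in replicate 1 and 1124 in replicate 2. Both held CAGGTG, which the members of the next ranks down to 33 did not. The boundary to the stronger peaks was the peak nearest RYBP, rank 20, with 2117. At the other end CysRS, a tRNA synthetase gene, had 509 at rank 500 and GILT2 had 509 at rank 501, so no gap in signal marked the lower limit.

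Further members at ranks 21 to 60 are given by the kind of gene nearby, and these kinds were chosen after the ranks were seen. Metabolic enzymes were among them. The member in an intron of Prps, which makes the ribose phosphate donor of nucleotide synthesis, had 726 in replicate 1 and 1306 in replicate 2. The one in an intron of Adss, an enzyme of AMP synthesis, had 767 in replicate 1 and 804 in replicate 2. Gapdh2, a glycolytic enzyme, had its member 165 bp upstream of the TSS, with 735 and 842. Glo1, glyoxalase, had its member in the 5' UTR with CAGGTG, and 912 in replicate 1 and 860.5 in replicate 2. Ugt37D1, a glycosyltransferase, had 806 and 1181. None of these 5 differed between the replicates by 2-fold.

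Regulators were near the top as well. A member of rank 23 lay in an intron of ush, which encodes the Friend-of-GATA cofactor u-shaped, but its nearest TSS was that of cbt (cabut), a zinc finger factor, 1392 bp away. It had 975 in replicate 1 and 1065 in replicate 2. The member 211 bp upstream of ps (pasilla), a splicing regulator, had 821 and 1144. The member in the 5' UTR of dia (diaphanous), a formin that nucleates actin filaments, had 897 and 1028. The member 241 bp upstream of msi (musashi), an RNA-binding protein of neural and stem cells, had 781 and 758, in a window of 14.9% GC. The member at Tom (Twin of m4), an inhibitor of Notch signalling of the Bearded family, had 640 and 851. The member 118 bp upstream of Dscam1, an adhesion protein of neurons, had 646 and 782. The gene of Kah itself had a member 424 bp upstream of its TSS, with 541 in replicate 1 and 888 in replicate 2, and the next gene, MED14, had one of 833 and 1116. The line carries a tagged Kah construct, and reads from it at this locus cannot be told apart from those of the gene's own copy.

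Mitochondrial genes at these ranks included promoter members rich in A and T. The member between Art3 and mRpS10 had 1037 in replicate 1 and 836 in replicate 2, and that at mRpL41 had 978 and 763, in windows of 26.7 and 22.8% GC. These 2 were higher in replicate 1. The member shared by CenG1A and mRpS23 had 722 and 725. PNPase, a mitochondrial polynucleotide phosphorylase, had its member in the 5' UTR with 765 and 728. Over the whole list of mitochondrial ribosomal protein genes, 2 members (0.417%) and 3 other IDR peaks (0.0832%) had such a gene as the nearest. The interval of the difference was -0.00916 to 1.42 points. Here and in the other lists only the gene of the nearest TSS was counted. The members at mRpS10 and mRpS23, nearer to Art3 and CenG1A, are therefore not in this count.

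The 7 strongest members more than 5000 bp from any TSS are given in order of rank. The member 5889 bp from the TSS of Cat, which encodes catalase, had 761 in replicate 1 and 833 in replicate 2, and lay between genes. The member nearest CG4004 had 753 and 579.7 and that nearest CG13244, within the gene beat-Ib, had 547 and 696, both in exons of non-coding transcripts. The member in an intron of sbb (scribbler), 20112 bp from its TSS, had 564 and 541. The intergenic member nearest CG13323, 11977 bp from its TSS, had 596 and 464. The member nearest eEF1gamma, 5731 bp upstream, had 486 and 559.6. Next in rank, the member in an intron of Shab, a potassium channel, had 416 and 561 and CAGGTG 9 bp from the summit. Of the 49 members over 5000 bp from a TSS, 7 held CAGGTG (14.3%), against 47 of 569 other IDR peaks that far away (8.26%). The difference was 6.03 points, with an interval of -1.60 to 18.6, so its sign was not settled.

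In coding exons the strongest members included those in CG7889 (869 in replicate 1 and 946 in replicate 2), cact (437 and 673), which encodes the inhibitor of the patterning factor Dorsal, Prat (506 and 484), the first enzyme of purine synthesis, and Cks85A (341 and 421). The 2 members in 3' UTRs had CG10321 (591 and 576) and rogdi (258 and 362) as the nearest TSS, and lay in the genes CG15674 and TpnC73F, a troponin C. In exons of non-coding transcripts they were CG4004, CG13244, hll (564 and 598), Datp (566 and 495) and slbo (457 and 421), which encodes a C/EBP factor needed by migrating border cells.

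The 480 members had 453 different nearest genes. Of these, 30 were nearest to 2 members and 4 to 3 or more. The gene tara (taranis), of the trithorax group, was nearest to 4 members, with signals of 953, 644, 621 and 602. The gene cbt was nearest to 3 (2043, 901 and 543), of which the weakest lay in a 5' UTR within both cbt and ush. The gene chinmo, a regulator of neuronal identity over time, was nearest to 3 intergenic members (755, 698 and 686), at 1826 to 12559 bp upstream. The gene sbb was nearest to 3 (1104, 613 and 579). Of the 5 pairs of members within 1000 bp of each other, 4 were summits 201 to 216 bp apart in 1 interval. The other pair was at ph-p, 616 bp apart.

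Chromatin regulators were the 1 list of genes whose share differed between the sets beyond its interval, out of 27 lists of function and 1 of names. They were the nearest genes of 18 members (3.75%, 2.24 to 5.86%), against 54 other IDR peaks (1.5%), a difference of 2.25 points (0.814 to 4.38). The interval was not widened for the 28 lists compared. The share was 3.12% when the peaks were ranked by either replicate alone, 3.48% at ranks 21 to 250 and 2.45% at ranks 21 to 1000. It was 3.80% with the 20 strongest kept and 4.17% by the nearest gene body. The difference from the other IDR peaks was not computed in these runs. The 18 members were at 15 genes. The Polycomb group was represented by ph-p (851 in replicate 1 and 741 in replicate 2 at the stronger member, 572 and 459 at the weaker), ph-d (450.2 and 309) and Psc (583 and 543 at the stronger, 288 and 259.5 at the weaker). The genes ph-p and ph-d are near-identical neighbours, so reads may be shared between copies.

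Of the other chromatin genes, Trl, which encodes GAGA factor, had 739.9 in replicate 1 and 642 in replicate 2. Chro had 669.8 and 609, and the insulator genes mod(mdg4) and Cp190 had 399 and 540.3 and 483 and 327. The genes trx, a histone methyltransferase, and nej, the acetyltransferase CBP, had 373 and 353 and 321 and 341. Kdm2 had 2 members, of 410.4 and 245 and of 297 and 238. The others were osa (304 and 267), Kdm5 (246 and 305), Mi-2 (226 and 315), Sin3A (207 and 303) and egg (284 and 232). CAGGTG was at 1 of the 18, that of Mi-2, 8 of the 18 had windows under 30% GC, and 7 were at promoters. The 54 other IDR peaks of this list held CAGGTG at 3, were under 30% GC at 10 and were at promoters at 24.

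For the other lists the interval of the difference included 0. The Notch pathway had 3 members (mam with 376 in replicate 1 and 437 in replicate 2, E(spl)m7-HLH with 273 and 557 and N with 362 and 417), or 0.625%, against 0.610% of the other IDR peaks, and the share was 1.04% when the peaks were ranked without replicate 2, by replicate 1 alone. The Wnt pathway had 2 members (pan and sgg), or 0.417% against 0.693%, the Dpp and activin pathway 3 (sgg, Mad and tup), or 0.625% against 1.41%, and the list of EGFR, FGF and Ras genes 8 (with Raf, InR, aos and foxo the strongest), or 1.67% against 1.83%. The Hedgehog pathway and the Hippo pathway with the Mob proteins each had 0 members (exact upper limit 0.766%) against 0.388% of the other IDR peaks, and without replicate 1 the Hedgehog share was 0.208%. Nuclear receptors and ecdysone response genes had 3 members (Hr78 with 596 and 498, Hr3 with 496 and 399.7, Hr4 with 315 and 268), or 0.625% against 1.36%, and the share was 1.25% without replicate 2.

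Mesoderm and muscle regulators had 4 members (2 at CHES-1-like, 1 at kirre and 1 at tup) against 52 other IDR peaks, or 0.833% against 1.44%, and without replicate 1 the share was 0.208%. Muscle structure and attachment genes had 7 members, or 1.46% against 1.05%. Those at rhea, which encodes talin, had 430.3 in replicate 1 and 594 in replicate 2, those at mew, an integrin subunit, 455 and 529, and those at Zasp52, a Z-disc protein, 325 and 476. Embryonic patterning factors had 2 members (cact and slp2), or 0.417% against 1.44%, and the interval of the difference was -1.56 to 0.116 points. Neural and glial regulators had 6 members, or 1.25% against 1.08%, among them elav (380.3 and 417).

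Among housekeeping lists, cytoplasmic ribosomal protein genes had 11 members against 59 other IDR peaks (2.29% against 1.64%). All 11 members and 57 of the 59 others were at promoters. The strongest members were RpS27 (352 in replicate 1 and 364 in replicate 2), RpS16 (359.9 and 289), RpL24 (308 and 342) and RpL14 (317 and 334), none above 718 in the pooled list. CAGGTG was at 1 of the 11 members and 0 of the 59 others. Translation factors and tRNA synthetases held 1.04% of members against 0.583% of the others, and vesicle traffic 0.625% against 0.749%. Ubiquitin and proteasome genes held 0.208% against 0.777%, with 0.417% of ranks 21 to 500 without replicate 1 and 0.625% without replicate 2. Mitochondrial metabolism held 0.417% against 0.860%, splicing and RNA processing 0.417% against 0.804%, and transcription and Mediator genes 0.417% against 0.555%. The vacuolar proton pump held 0.208% against 0.139%, and 0% without replicate 2. Cell cycle genes had 4 members (CycB, Cdk4, CycE and CycY), or 0.833% against 0.971%. Heat shock genes, chaperones and autophagy had 3 members, of which 2 were at Hsp83, or 0.625% against 0.749%.

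Protein kinases and phosphatases held 1.67% of members against 1.55% of the other IDR peaks, and cell adhesion and polarity genes 2.29% against 1.86%, among them Dscam1, cora, Cad87A and mew. Neuronal signalling and ion channel genes had 6 members against 21 (1.25% against 0.583%, interval of the difference -0.0746 to 2.13 points), with Itpr (571 in replicate 1 and 601 in replicate 2) the strongest. Any of the 27 lists held the nearest gene of 116 members (24.2%) and 891 other IDR peaks (24.7%). A gene named by CG and a number was the nearest, alone or tied with another gene, at 138 members (28.8%) and 942 other IDR peaks (26.1%), with a difference of 2.62 points (-1.51 to 7.05). At 129 of the 138, every nearest gene had such a name.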

How the data were processed

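The deposited peak lists were used, for 2 replicates of 1 group, namely the candidate lists of 30000 peaks of each replicate and of both together, and the authors' list of 4105 IDR peaks. Per the file headers and listing these are narrowPeak files in dm6, with a signal for every peak from the authors' caller, whose scaling is not stated. The −log10 q values in the deposited lists were not used, being at the cap for every IDR peak. Per the labels, chromatin was sonicated to 200 to 800 bp. Which aligner, caller and filters were used is not given here, and read depth is unknown.

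IDR peaks were ranked by signal, and ranks 21 to 500 taken. Summits were matched to replicate candidates within 100 bp. Genes and TSSs came from Ensembl release 115 and sequence from RefSeq Release 6, and 0 peaks passed the end of a chromosome. Coordinates are 1-based. A summit in several features was given the first of 5' UTR, coding exon, 3' UTR, non-coding exon and intron. For each word, peaks were scored by whether the 101 bp centred on the summit held it on either strand. Shares have exact Clopper-Pearson 95% intervals and differences, members minus other IDR peaks, Newcombe 95% intervals, which cover counting error only. No p-value was computed, because the signal chose the members and peaks are not replicates. Scripts were tested on simulated data. Python 3.11.15, pandas 2.3.3, scipy 1.17.1 and statsmodels 0.14.6 were used.

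The members, the 28 gene lists (27 of function) and the 18 words were chosen with earlier results of these data known. Genes were named as those at ranks 21 to 60, the strongest in each feature class, with CAGGTG, far from a TSS and in each list, the most tilted between replicates, those nearest to 3 or more members and those at the limits of the ranks. The alternatives were other rank limits, ranking by each replicate, 1 summit for each interval, and other promoter, motif and match windows. The result of 1 gene list and of 1 member named by that rule is not reported here.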

Additional observations from a re-analysis of the deposited data

How the results depend on the processing

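All 57 alternatives to the 7 main results were compared with the main value's interval. The differences in promoter share and CAGGTG share between the members and the other IDR peaks stayed inside it in each alternative run. The CAGGTG difference, 7.37 points in the main run, fell close to its lower limit of 4.19 in some. It was 4.24 points within 25 bp of the summit and 4.37 points at ranks 21 to 1000, and highest at ranks 21 to 250, with 9.03 points. Promoters of 250 bp held 50.4% of members, promoters of 1000 bp 72.1% and promoters of canonical TSSs alone 50.6%, and the median distance to a canonical TSS was 472 bp. CAGGTG was at 13.1% of ranks 21 to 1000, and at 9.38% of members within 25 bp of the summit. A candidate in both replicates was found for 100% of ranks 21 to 250 and 98.8% of ranks 21 to 1000, and for 95% of members within 50 bp and 100% within 250 bp. Ranking by 1 replicate alone gave promoter shares of 61.7 to 63.3%, promoter differences of 13 to 14.7 points, CAGGTG shares of 14.2 to 17.3%, CAGGTG differences of 5.01 to 8.43 points, 99.6% with both candidates, a median TSS distance of 250 bp and 23.3 to 24.2% in any gene list. Of 196 gene list alternatives, 187 stayed within the interval. No paired analysis was possible because there was only 1 group. Unknown depth and 1 line of embryos limit all values.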
